A study of Mus musculus with 21 samples.

Results

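Chil3, Chil4, Chil1, Retnla, Rnase2a, Ear2, Ear6, Ear10 and Rnase4 encode secreted chitinase-like proteins, a resistin-like protein and ribonucleases of the eosinophil type, with one relative of that ribonuclease family. The 9 genes were chosen by name from the 47069 genes of the count table, and all 9 had a row. They were measured by RNA sequencing in macrophages grown from the bone marrow of C57BL/6 mice. M-CSF-conditioned medium was used for 5 days of culture, and IL-33, IL-4 or nothing was then added for 36 h. Each of 7 groups had 3 libraries, 21 in all: wild-type cells given no cytokine, IL-33 or IL-4, ST2-/- labelled cells given no cytokine or IL-33, and Cx3cr1CRExGata3fl/fl labelled cells given the same. ST2, encoded by Il1rl1, is the receptor chain for IL-33. In the last genotype, called Gata3fl/fl labelled here, the Cx3cr1 promoter drives the Cre that removes the floxed Gata3, so the deletion depends on the cells that use that promoter. IL-4 was not analysed here in the labelled genotypes.

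IL-4 and IL-13 signal through the receptor chain encoded by Il4ra to the transcription factor STAT6, and in mouse macrophages this route switches on a secreted programme whose best-known markers are Chil3 (Ym1), Chil4 (Ym2) and Retnla (Fizz1). Chitinase-like proteins bind sugar polymers but have lost the catalytic activity of true chitinases. The Ear genes are mouse relatives of the eosinophil-derived neurotoxin and eosinophil cationic protein, and although they are named after eosinophils, macrophages transcribe several of them. IL-33 acts on its own receptor through MyD88, and is itself known to make several cell types release IL-13.

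Depth ranged from 32.6 to 48.7 M counts per library (M, mega), and a level is a count divided by the TMM-scaled library size (CPM). Nothing in the labels says that replicates came from separate animals, so the p-values speak only of the scatter among these libraries, part of which may be technical. The macrophage markers Lyz2, Csf1r and Adgre1 were abundant in every group (Csf1r at 2165 CPM or more on average), though lower with IL-4. Neither deletion could be checked from gene counts. Il1rl1 stood at 14.2 to 20.4 CPM in the ST2-/- labelled libraries. In the wild type it stood at 14.6 to 17.3 CPM without cytokine or with IL-33, and at 50.7 to 67.8 with IL-4. Gata3 stood at 0.0715 to 0.444 CPM in the Gata3fl/fl labelled libraries against 0.109 to 0.246 in the wild type. The 6 Gata3fl/fl labelled libraries were female by Xist, at 277 to 376 CPM against at most 0.0462 elsewhere, and the other 15 were not, so sex and that genotype cannot be told apart in any comparison below that joins them. Of the 9 genes, 7 passed the low-count filter and were tested. Ear6 and Ear10 did not pass, and Chil4 passed only through the IL-4 libraries, which bears on every count of called genes below.

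The genes lie on 4 chromosomes of the mouse genome (GRCm38, GENCODE M21 gene bounds). Chil3 (chr3:106147554-106167564) and Chil4 (chr3:106201490-106219507) lie on the minus strand, 33.9 kb apart. Chil1 (chr1:134182176-134190181) and Retnla (chr16:48842551-48844461) lie on the plus strand of their own chromosomes. Ear10 (chr14:43922720-43923559, minus) and Ear2 (chr14:44102654-44103534, plus) lie 179 kb apart, and Rnase4 (chr14:51091077-51106151, plus), Rnase2a (chr14:51255262-51256112, minus) and Ear6 (chr14:51853699-51854643, plus) follow on the same chromosome. All 9 are protein-coding. Of the possible 100-base windows in their transcripts, 24.2% of those of Ear10 and 13.9% of those of Ear2 also occur in another gene, mostly in each other or in the pseudogene Ear-ps2, so the counts of these genes are uncertain. The share was 4.93% for Chil3, 2.03% for Chil4 and 0 for Retnla, Rnase2a, Ear6 and Chil1. Rnase4 shares 219 exon bases, 13.4% of its exons, with Ang on the same strand.

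Upstream bases of some members are shown first. Those of Chil3 and Chil4 are close to each other, as are those of Ear2, Ear10 and Rnase2a, while the transcript levels are not. All 9 genes matched an entry among the RefSeq promoter sequences of GRCm38.p6. The first set is Retnla (chr16:48842359-48842550, plus strand), Chil3 (chr3:106167565-106167814, minus strand) and Chil4 (chr3:106219508-106219729, minus strand), printed 5′ to 3′ on the strand of the gene up to the base before the annotated gene. Capitals mark a match to the STAT-type letters TTCNNNNGAA or TTCNNNGAA, searched on both strands.
Retnla: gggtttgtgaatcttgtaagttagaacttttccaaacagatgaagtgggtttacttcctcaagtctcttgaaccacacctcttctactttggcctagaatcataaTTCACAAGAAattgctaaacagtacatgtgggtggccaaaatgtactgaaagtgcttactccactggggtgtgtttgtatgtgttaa
Chil3: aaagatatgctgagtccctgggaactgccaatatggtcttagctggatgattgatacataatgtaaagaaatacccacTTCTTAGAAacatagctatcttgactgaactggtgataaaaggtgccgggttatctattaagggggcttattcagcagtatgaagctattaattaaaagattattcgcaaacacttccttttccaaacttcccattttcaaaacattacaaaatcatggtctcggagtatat
Chil4: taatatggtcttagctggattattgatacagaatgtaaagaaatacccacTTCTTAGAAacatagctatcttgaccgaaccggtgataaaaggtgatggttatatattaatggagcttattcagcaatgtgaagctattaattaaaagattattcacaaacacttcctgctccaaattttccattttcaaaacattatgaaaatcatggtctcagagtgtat

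Within the 250 bases before the RefSeq start, Retnla held TTCACAAGAA, from 145 to 136 bases before it. Chil3 and Chil4 held the same TTCTTAGAA, at 172 to 164 and at 200 to 192 bases. Of 32851 RefSeq promoter windows of that length, 5.85% held TTCNNNNGAA and 7.02% held TTCNNNGAA, so single matches are common. The other 6 members held neither. TATAAA was found for Chil4 and Retnla, against 12.4% of all windows, and the loose C/EBP letters TTNNGNAA were found in all 9, against 36.8%, both also searched on either strand. Aligned over 221 bases, Chil3 and Chil4 were identical at 201, or 91.0%.

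The second set is Ear2 (chr14:44102404-44102653, plus), Ear10 (chr14:43923597-43923846, minus) and Rnase2a (chr14:51256113-51256362, minus), the 250 bases before each RefSeq start, members with high, very low and very high transcript levels under IL-4. Capitals mark bases of Ear10 and Rnase2a that did not match Ear2 in the alignment, 19 and 72 bases in that order.
Ear2: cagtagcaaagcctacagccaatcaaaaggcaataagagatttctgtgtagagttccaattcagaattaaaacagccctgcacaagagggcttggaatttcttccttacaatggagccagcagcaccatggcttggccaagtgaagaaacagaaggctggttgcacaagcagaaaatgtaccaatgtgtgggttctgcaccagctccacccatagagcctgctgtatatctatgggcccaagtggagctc
Ear10: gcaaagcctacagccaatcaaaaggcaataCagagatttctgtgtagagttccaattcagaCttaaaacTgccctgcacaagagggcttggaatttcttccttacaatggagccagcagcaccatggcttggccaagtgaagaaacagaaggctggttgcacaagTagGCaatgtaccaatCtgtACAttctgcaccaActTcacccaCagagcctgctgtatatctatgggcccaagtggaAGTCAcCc
Rnase2a: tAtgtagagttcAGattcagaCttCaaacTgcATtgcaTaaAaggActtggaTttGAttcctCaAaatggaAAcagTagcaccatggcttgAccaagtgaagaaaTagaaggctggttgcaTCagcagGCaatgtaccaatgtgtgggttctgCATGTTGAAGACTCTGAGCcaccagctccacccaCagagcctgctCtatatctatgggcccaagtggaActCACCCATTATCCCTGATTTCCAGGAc

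Ear2 and Ear10 were identical at 94.3% of aligned promoter bases, Ear2 and Ear6 at 93.0%, Rnase2a and Ear6 at 88.2% and Rnase2a and Ear2 at 86.4%. Pairs from different families were 53.8% to 70.2% identical, so values in that range do not set relatives apart. Chil1 with Chil3 or Chil4, and Rnase4 with the other ribonucleases, were within it, at 55.9% to 64.4%. These are descriptions of letters, and no binding was measured.

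The members' levels across the groups were first compared in wild-type cells given IL-4, the cytokine for which these genes are known markers. IL-4 raised 6 of the 7 tested genes (Chil3, Chil4, Retnla, Rnase2a, Ear2 and Rnase4), by 2.54-fold for Rnase4 and by far more for the others. Across all 14473 tested genes, 25.1% were called higher (edgeR's quasi-likelihood test, Benjamini-Hochberg adjusted p under 0.05). Their summed level went from 174 ± 16.9 CPM without cytokine to 2164 ± 123 CPM with IL-4 (SD, n = 3 each). In bulk RNA, more cells that express a gene and more RNA per cell cannot be told apart. The sum of the 6 macrophage markers moved the other way under IL-4. It was 26800 to 29689 CPM without cytokine and 13614 to 15183 CPM with IL-4. Of the 6, 5 were called lower and 1 higher, against 22.5% and 25.1% of all tested genes. Lyz2, the lysozyme gene, averaged 21331 and then 9890 CPM. The part of this shift in the members' changes was not tested.

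**Figure D1:**
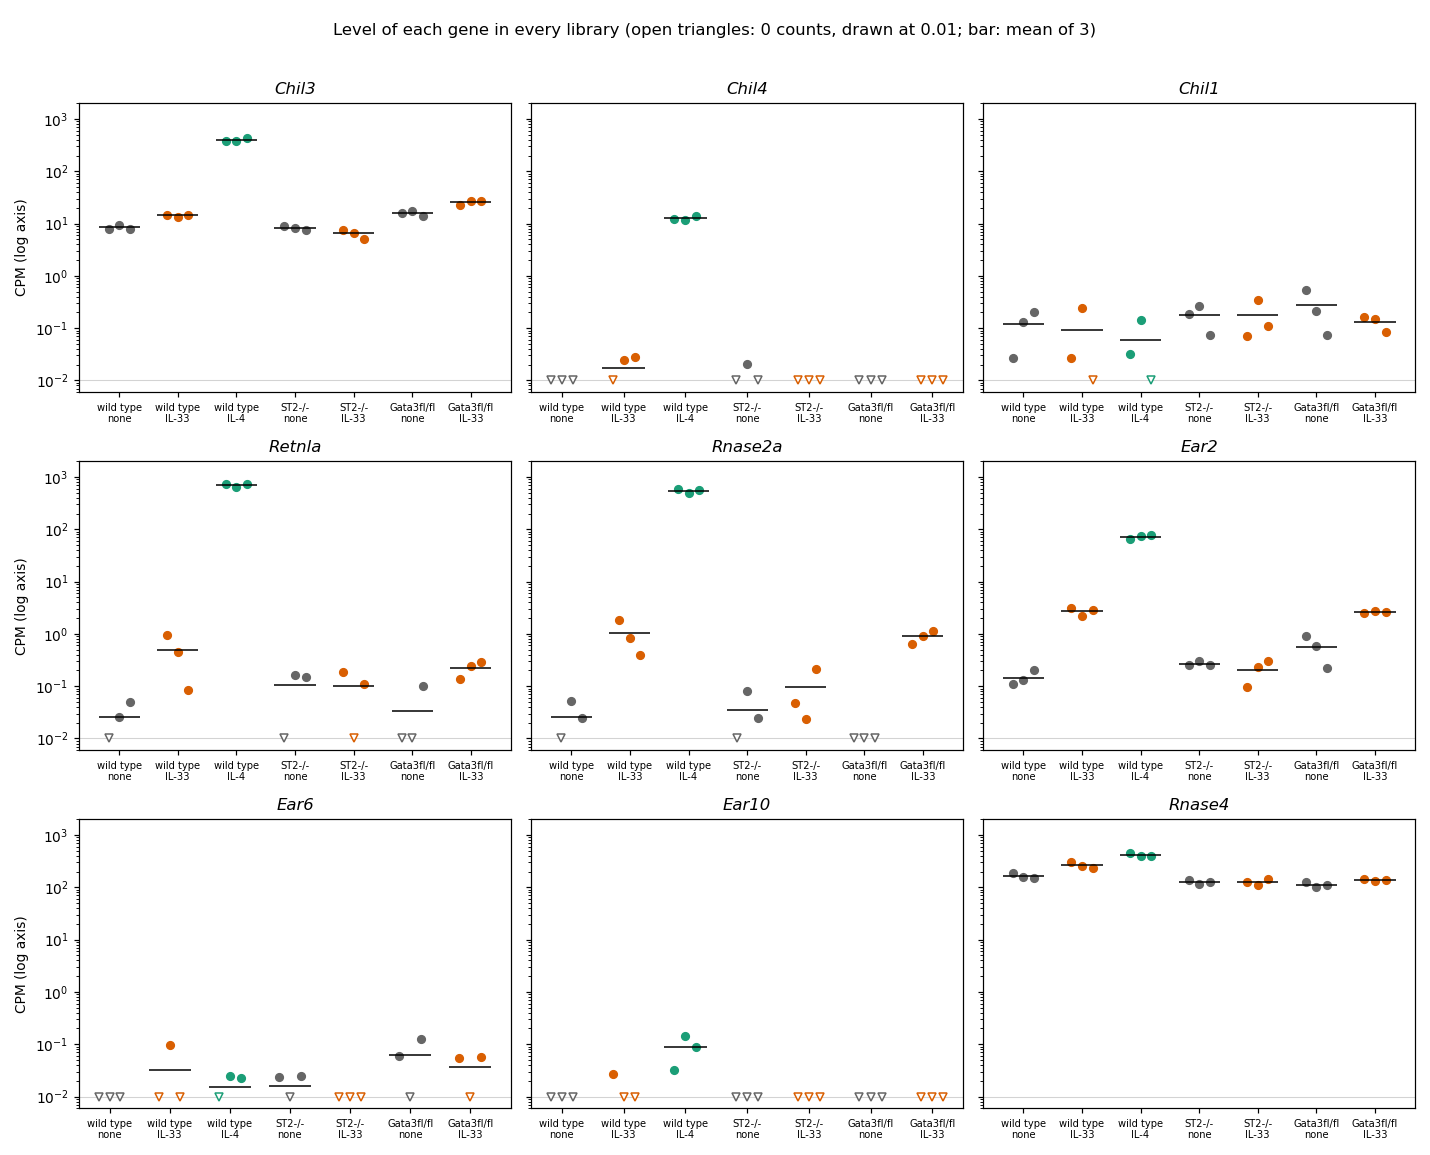
Level of each gene in CPM on a log axis, in every library of the 7 groups; each point is a library, the bar is the mean of 3, and open triangles drawn at 0.01 are libraries with 0 counts. The IL-4 libraries stand above every other library for Chil3, Chil4, Retnla, Rnase2a, Ear2 and Rnase4, from 375 to 436 CPM for Chil3, and Ear6 and Chil1 show no such step.

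Retnla, a secreted cysteine-rich protein of type 2 inflammation and tissue repair, had 0, 1 and 2 counts in the 3 wild-type libraries without cytokine and 739, 658 and 742 CPM with IL-4. The gene was thus nearly silent before IL-4 and high in each of the 3 libraries after it, with no overlap. The ratio was 27293, with a 95% counting interval of 9339 to 132350, which covers counting error only. The adjusted p was 4.8e-19 by edgeR.

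Rnase2a, a secreted ribonuclease of the eosinophil-derived neurotoxin type, had 0, 2 and 1 counts without cytokine. With IL-4 it stood at 579, 504 and 562 CPM. The ratio was 20956 (95% counting interval 7170 to 101620, edgeR adjusted p = 8.9e-18). Single libraries without cytokine moved both fits: the log2 change of Retnla was 14.58, and 15.39 without replicate 3, and that of Rnase2a was 14.20, and 15.03 without replicate 2. Ear2, a close relative, was low but present without cytokine, at 0.109, 0.130 and 0.200 CPM, and stood at 65.5, 75.1 and 77.7 CPM with IL-4. Every IL-4 library was above every library without cytokine, and the log2 change was 8.92 ± 0.26 (SE, edgeR adjusted p = 3.0e-17).

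Chil3 began from a clear basal level, at 7.87, 9.50 and 7.84 CPM. It reached 383, 375 and 436 CPM with IL-4, a 47.4-fold rise (log2 5.57 ± 0.12, edgeR adjusted p = 3.2e-19). Chil4, its neighbour, had 0 counts in the libraries without cytokine and 12.5, 11.8 and 14.2 CPM with IL-4. That is at least 164-fold higher against a floor of 3 counts per library, with an edgeR adjusted p of 1.7e-10. Both neighbours rose, but Chil4 made up only 3.12 ± 0.0537% of their joint counts under IL-4 (SD, n = 3). The ratio of Chil3 to Chil4 counts was 30.8, 31.7 and 30.7 in the 3 libraries. Per kb of exon it was 53.0 to 54.8, which rests on the annotated exon lengths of 1632 and 2817 bases.

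Rnase4, a broadly expressed ribonuclease with a preference for uridine, was the most abundant member without cytokine, at 185, 156 and 154 CPM. With IL-4 it stood at 461, 398 and 399 CPM, a rise of 2.54-fold (log2 1.34 ± 0.10, edgeR adjusted p = 2.6e-10). The rise was the smallest of the 6, and the groups did not overlap. Ear10 had 1, 6 and 4 counts in the IL-4 libraries, 1 count in 1 wild-type IL-33 library and 0 in every other library. Ear6 had at most 5 counts in any library, in no fixed group. Chil1, which encodes a chitinase-like lectin also known as BRP-39, had 7 to 39 counts per group, and no comparison was called for it.

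Compared per kb of exon, the order of the members differed between the 2 cytokines. Under IL-4 the wild-type means were 1190 CPM per kb for Retnla, 795 for Rnase2a, 256 for Rnase4, 244 for Chil3, 101 for Ear2 and 4.55 for Chil4. With IL-33 they were 162 for Rnase4, 8.75 for Chil3, 3.78 for Ear2, 1.48 for Rnase2a and 0.823 for Retnla. Without cytokine only Rnase4, at 101 CPM per kb, and Chil3, at 5.15, exceeded 1. Retnla alone held between 32.6% and 33.2% of the members' counts in each IL-4 library. Rnase4 held 93.7%, 93.6% and 92.9% of them in the wild-type IL-33 libraries, and already 95.9%, 94.1% and 94.9% without cytokine.

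IL-33 in wild-type cells moved the same families by far less. It raised Chil3, Retnla, Rnase2a, Ear2 and Rnase4, 5 of the 7 tested, while 18.5% of all tested genes were called higher. Chil4 had 2 counts over the 3 IL-33 libraries and was not called. The members' sum was 284 ± 36.8 CPM.

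Ear2 rose in every library. The 3 replicates stood at 3.07, 2.24 and 2.84 CPM with IL-33, all above the 0.109 to 0.200 CPM without cytokine (log2 4.17 ± 0.33, edgeR adjusted p = 1.4e-09). Chil3 stood at 14.7, 13.4 and 14.8 CPM, a 1.70-fold rise with no overlap (log2 0.76 ± 0.12, edgeR adjusted p = 2.1e-05). Rnase4 stood at 305, 253 and 238 CPM, a 1.61-fold rise with no overlap (log2 0.68 ± 0.10, edgeR adjusted p = 1.1e-05).

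Rnase2a and Retnla rose from almost nothing to a low level that differed widely between replicates. Rnase2a had 69, 34 and 14 counts with IL-33, or 1.82, 0.835 and 0.394 CPM. Its ratio to no cytokine was 39.3 (95% counting interval 13.1 to 194, edgeR adjusted p = 3.2e-05). Retnla had 36, 18 and 3 counts, or 0.952, 0.442 and 0.0844 CPM. Its ratio was 19.2 (6.24 to 95.7), with an edgeR adjusted p of 0.0023 and, by limma-voom, 0.0553. For both genes replicate 1 was the highest and replicate 3 the lowest, and the third Retnla library, at 3 counts, was close to the highest library without cytokine. Ear2 did not share this order. The log2 change of Retnla was 4.10, but 3.25 without IL-33 replicate 1 and 4.93 without replicate 3 of no cytokine. That of Rnase2a was 5.14, but 4.43 without IL-33 replicate 1 and 5.98 without replicate 2 of no cytokine.

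**Figure D2:**
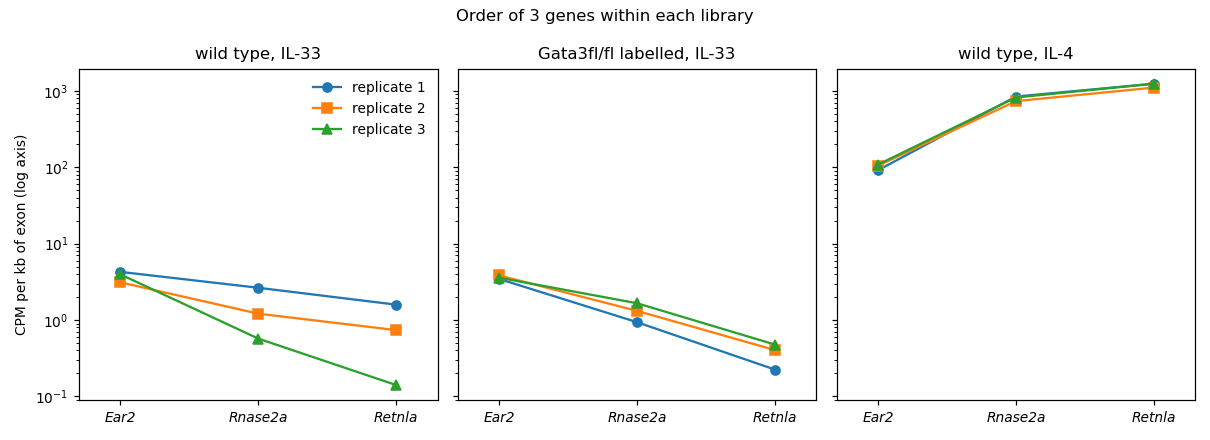
Ear2, Rnase2a and Retnla in CPM per kb of exon on a log axis, 1 line per library, for wild-type cells with IL-33, Gata3fl/fl labelled cells with IL-33 and wild-type cells with IL-4. Lines fall from Ear2 to Retnla in all 6 IL-33 libraries and climb in all 3 IL-4 libraries.

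The order of these 3 genes within a library differed between IL-33 and IL-4. With IL-33, Ear2 was above Rnase2a and Rnase2a above Retnla in 3 of 3 wild-type libraries, with mean levels of 3.78, 1.48 and 0.823 CPM per kb. The same order was seen in 3 of 3 Gata3fl/fl labelled libraries, at 3.62, 1.30 and 0.369 CPM per kb. The order was also present in 2 of 3 ST2-/- labelled IL-33 libraries and in 1 of 3 wild-type libraries without cytokine. Ear2 was already the highest of the 3 in every wild-type library without cytokine, at 0.152, 0.180 and 0.279 CPM per kb, all on few counts. With IL-4 the order was Retnla, Rnase2a, Ear2 in 3 of 3 libraries. In counts, Rnase2a exceeded Retnla 1.92, 1.89 and 4.67 times in the wild-type IL-33 libraries and stood at 0.784, 0.766 and 0.758 of it in the IL-4 libraries. This order was noticed in these data and carries no test. The third wild-type value rests on 3 Retnla counts.

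Set against each other directly, IL-33 and IL-4 gave different levels for 6 of the 7 tested members, all lower with IL-33 (20.7% of all tested genes were lower). The IL-4 level exceeded the IL-33 level 1419-fold for Retnla, 534-fold for Rnase2a, 27.9-fold for Chil3 and 26.9-fold for Ear2. It did so only 1.58-fold for Rnase4. On the log2 scale these differences were -10.47 ± 0.25, -9.06 ± 0.22, -4.80 ± 0.12, -4.75 ± 0.18 and -0.66 ± 0.10, with edgeR adjusted p-values from 2.3e-18 to 1.2e-05. For Chil4 the IL-4 to IL-33 ratio was 735 (95% counting interval 203 to 6078), since the IL-33 libraries held 2 counts. The Retnla and Rnase2a differences lean on wild-type IL-33 replicate 1, without which they were -11.31 and -9.75.

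**Figure D3:**
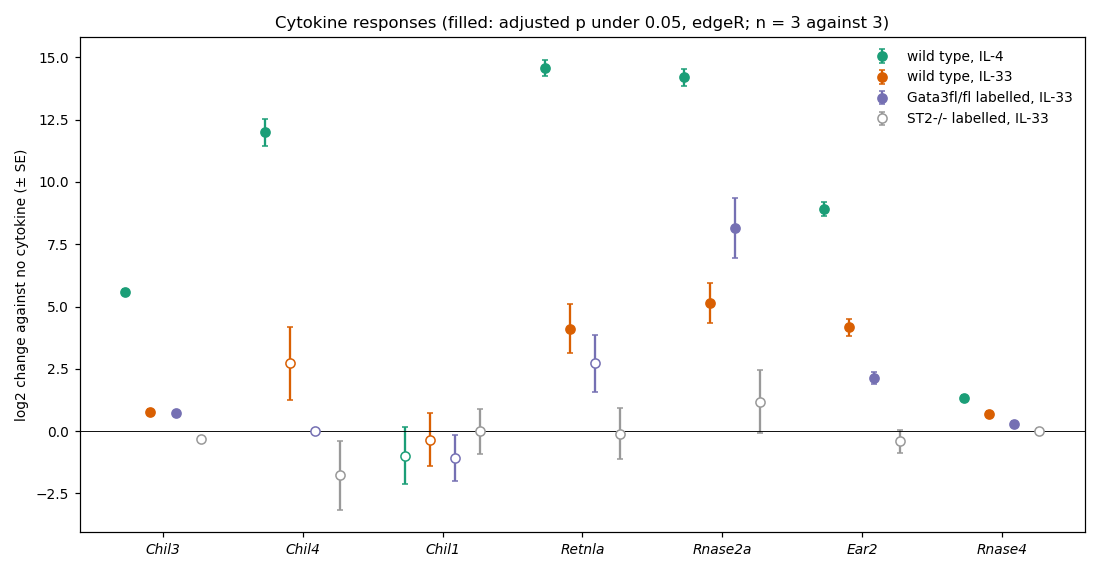
Log2 change against no cytokine, with its standard error, for the 7 tested genes in wild-type cells with IL-4 or IL-33 and in Gata3fl/fl labelled and ST2-/- labelled cells with IL-33; filled points passed an adjusted p of 0.05. The IL-4 changes are the highest for each of Chil3, Chil4, Retnla, Rnase2a, Ear2 and Rnase4, and no ST2-/- labelled point is filled; fitted values of genes with 0 counts in one group are not bounds.

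Markers of other cell types were present at levels that differed between the groups, and their part in these results was not tested. The 4 monocyte markers, led by Ccr2, summed to 221 to 250 CPM in wild-type cells without cytokine, 356 to 419 with IL-33 and 99.9 to 110 with IL-4. All 4 were called higher with IL-33, where 18.5% of all tested genes rose, and 2 were called lower with IL-4, where 22.5% fell. The 9 neutrophil markers summed to 21.2 to 26.6 CPM without cytokine, 49.4 to 52.0 with IL-33 and 17.4 to 18.1 with IL-4. The summed eosinophil markers (6 genes) stood at 9.65 to 14.6 CPM in wild-type cells without cytokine, 24.6 to 28.0 with IL-33 and 30.9 to 41.4 with IL-4. Most of that was Siglecf under IL-4 (31.4 CPM on average) and Ccr3 under IL-33 (16.3 CPM), while Epx, which encodes eosinophil peroxidase, was at or below 0.208 CPM on average in every group and at 0 in all ST2-/- labelled IL-33 libraries. Under IL-4, Retnla averaged 713 CPM and Rnase2a 548 CPM, while of the eosinophil markers Siglecf averaged 31.4 CPM and Epx 0.0303 CPM. The mast cell and basophil markers (5 genes) summed to 0.273 to 0.752 CPM without cytokine, 0.844 to 1.82 with IL-33 and 0.355 to 0.948 with IL-4. Within the wild-type IL-33 group, the mast cell gene Cpa3 stood at 1.08, 0.516 and 0.197 CPM in replicates 1 to 3, the order seen for Retnla and Rnase2a, and the ribonuclease gene Rnase2b at 0.476, 0.270 and 0.113 CPM. Cpa3 is 1 of the 5 mast cell and basophil genes, whose sum varied by a smaller factor there, from 0.844 to 1.82 CPM. Cpa3 did not have the order of Retnla in the Gata3fl/fl labelled IL-33 libraries, at 1.72, 0.848 and 1.09 CPM against 0.135, 0.242 and 0.286.

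**Figure D4:**
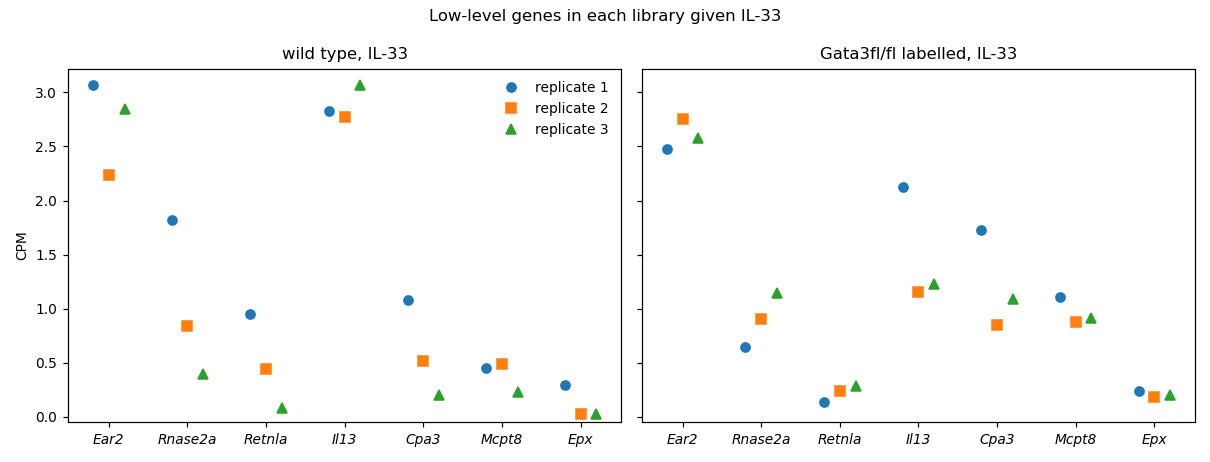
CPM of Ear2, Rnase2a, Retnla, the cytokine gene Il13, the mast cell and basophil genes Cpa3 and Mcpt8 and the eosinophil gene Epx in each library given IL-33, by genotype, with 1 marker shape per replicate. In wild-type cells Retnla, Rnase2a and Cpa3 are highest in replicate 1 and lowest in replicate 3, while Il13 stays between 2.78 and 3.07 CPM.

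In the ST2-/- labelled cells IL-33 called none of the 7 tested members by edgeR, as for all genes (0% of those tested). At an unadjusted p under 0.05 there were 507 genes and 1 member, Chil3, and DESeq2 and limma-voom also called 0 members. Chil3 stood at 9.10, 8.15 and 7.39 CPM without cytokine and 7.66, 6.73 and 5.15 with IL-33, with overlap (log2 -0.33 ± 0.13). Rnase4 stood at 127 ± 10.7 and 127 ± 15.2 CPM and Ear2 at 0.271 ± 0.0334 and 0.208 ± 0.103. Retnla had 14 and 12 counts over 3 libraries and Rnase2a had 5 and 11, so these low genes could have changed several-fold unseen. The 95% counting intervals of their ratios were 0.391 to 2.15 and 0.760 to 8.71. These libraries met the rule for pairing by replicate number given below. With that number as a block over all 21 libraries no member was called either.

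The difference between the ST2-/- labelled and wild-type responses to IL-33 was tested as an interaction. It was called for 3 of the 7 tested members, all with the lower response in the ST2-/- labelled cells (12.1% of all tested genes). They were Ear2 (log2 -4.58 ± 0.61, edgeR adjusted p = 7.8e-06), Chil3 (-1.09 ± 0.17, 5.5e-05) and Rnase4 (-0.68 ± 0.14, 0.0012). Retnla (-4.21 ± 1.57, 0.0582) and Rnase2a (-3.95 ± 2.01, 0.177) did not pass. Retnla passed without wild-type IL-33 replicate 3 (0.0152), without ST2-/- labelled replicate 1 of either treatment (0.0260 without cytokine, 0.0392 with IL-33) and without the low-count filter (1.3e-05). Rnase2a passed by DESeq2 (0.0293) and without that filter (0.0049).

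With IL-33 present, the ST2-/- labelled libraries were lower than wild type for 5 of the 7 tested members (19.1% of all tested genes were lower). The folds were 2.18 for Chil3 and 2.08 for Rnase4, and the count ratios were 13.2 (95% counting interval 8.78 to 20.7) for Ear2 and 11.4 (6.14 to 23.5) for Rnase2a. The log2 difference of Rnase2a was -3.46, but -2.76 without wild-type IL-33 replicate 1 and -4.74 without ST2-/- labelled IL-33 replicate 3. Retnla was called at an edgeR adjusted p of 0.0162 although the libraries overlapped (log2 -2.31, and -3.24 without ST2-/- labelled IL-33 replicate 1), and the call was lost without wild-type IL-33 replicate 1 (0.184), without ST2-/- labelled IL-33 replicate 2 (0.0723) and by DESeq2 (0.104). Without cytokine the 2 genotypes differed for 0 of the 7 tested members by edgeR (1.35% of all genes were called), with 1 at an unadjusted p under 0.05 and 1 called by DESeq2. That member was Rnase4, at 139, 118 and 124 CPM against 185, 156 and 154 (log2 -0.38 ± 0.10, edgeR adjusted p = 0.0669). These libraries met the rule for pairing by replicate number given below. With that number as a block over all 21 libraries, Rnase4 was called (edgeR adjusted p = 0.0013).

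Gata3fl/fl labelled cells differed from wild type in the starting level of 3 of the 7 tested members, with 9.85% of all tested genes called. Chil3 stood at 15.7, 17.3 and 13.95 CPM without cytokine, above all 3 wild-type libraries (1.86-fold, log2 0.90 ± 0.12, edgeR adjusted p = 3.7e-05). Ear2 stood at 0.891, 0.596 and 0.222 CPM, above every wild-type library but widely spread (log2 1.97 ± 0.43, edgeR adjusted p = 0.0054, limma-voom 0.103). Rnase4 stood at 125, 101 and 111 CPM, below all wild-type libraries (-0.56 ± 0.10, edgeR adjusted p = 0.0012). Markers of some other cell types were also higher in these libraries, and their part was not tested. The 9 neutrophil markers summed to 44.9 to 50.6 CPM against 21.2 to 26.6 in the wild type, with S100a9 at 15.9 to 18.3 against 6.76 to 9.81, and Ly6g at 0 in both groups. Some of the other marker lists were higher too, while the macrophage, dendritic cell and lymphocyte sums overlapped between the genotypes. Mast cell and basophil markers summed to 0.763 to 1.94 CPM against 0.273 to 0.752, eosinophil markers to 15.1 to 20.6 against 9.65 to 14.6, and monocyte markers to 287 to 305 against 221 to 250, each without overlap.

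IL-33 raised 4 of the 7 tested members in the Gata3fl/fl labelled cells, where 17.1% of all tested genes rose. Chil3 stood at 22.6, 27.5 and 26.6 CPM (1.63-fold, log2 0.71 ± 0.11, edgeR adjusted p = 1.8e-05). A difference from the wild-type response was not called (interaction -0.06 ± 0.16, adjusted p = 0.930), and the higher level of the genotype remained with IL-33 (1.79-fold, adjusted p = 1.7e-05). The neutrophil markers summed to 62.1 to 88.7 CPM there, against 49.4 to 52.0 in the wild type with IL-33, and those of mast cells and basophils to 3.29 to 4.12 against 0.844 to 1.82.

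Ear2, in contrast to its higher start, reached the wild-type range. With IL-33 it stood at 2.48, 2.75 and 2.57 CPM in the Gata3fl/fl labelled libraries, overlapping the wild type (log2 difference -0.06 ± 0.20, edgeR adjusted p = 0.898). Its rise was 4.41-fold (2.14 ± 0.25, 5.2e-07), and the interaction was -2.03 ± 0.48 (adjusted p = 0.0402). It was the 1 member called there, and 0.677% of all tested genes had a lower response. The call was lost by limma-voom (0.264), when the 4 groups were fitted alone (0.0974) and in 9 of the 12 fits that each left out 1 library, with adjusted p up to 0.165.

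Rnase2a had 0 counts in the 3 Gata3fl/fl labelled libraries without cytokine and 24, 30 and 40 counts with IL-33. That is at least 13.1-fold higher, and its level of 0.646, 0.908 and 1.14 CPM overlapped the wild type with IL-33 (1.82, 0.835 and 0.394). Retnla had 0, 0 and 4 counts without cytokine and 5, 8 and 10 with IL-33, a ratio of 7.21 (95% counting interval 2.46 to 28.7). The libraries did not overlap, but it did not pass (edgeR adjusted p = 0.0723) except without Gata3fl/fl labelled replicate 3 of no cytokine (0.0313) or without the low-count filter (1.2e-04). Chil4 had 0 counts in all 6 Gata3fl/fl labelled libraries.

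Rnase4 had the smallest called rise in these cells. It stood at 145, 132 and 137 CPM with IL-33, 1.23-fold above no cytokine (log2 0.30 ± 0.10, edgeR adjusted p = 0.0272). The call was lost with upper-quartile normalization (0.0571) and without Gata3fl/fl labelled replicate 2 (0.132) or 3 (0.0634) of no cytokine or IL-33 replicate 1 (0.0960). The interaction with wild type was -0.39 ± 0.14 (adjusted p = 0.220). With IL-33, Rnase4 and Chil3 were the 2 tested members that differed from wild type (11.3% of all genes were called), Chil3 higher and Rnase4 lower (-0.94 ± 0.10, adjusted p = 1.4e-06).

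Ordered by mean CPM over the 7 groups, Chil3 ran from wild type with IL-4, through Gata3fl/fl labelled cells with and without IL-33, to wild type with IL-33, wild type without cytokine and the ST2-/- labelled groups. The ranges of Gata3fl/fl labelled cells without cytokine and wild type with IL-33 overlapped, as did those of neighbours among the last 3 groups. For Ear2 the order was wild type with IL-4, then wild type and Gata3fl/fl labelled cells with IL-33, which overlapped. Below these, without overlap, came Gata3fl/fl labelled cells without cytokine and the 3 lowest groups, each of which overlapped the next. For Rnase4 the 3 wild-type groups came first and did not overlap. The 4 labelled groups followed and overlapped in sequence, so Gata3fl/fl labelled cells with IL-33 lay below wild type without cytokine.

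Relatives of the members were counted in full, from lists of the families. Of 16 ribonuclease A relatives and partners, 5 passed the filter. IL-4 raised these 5, where 25.1% of all tested genes rose, but Ang2 passed the filter only through the IL-4 libraries and had to differ. Ang2, an angiogenin paralog, had 0 counts without cytokine and stood at 3.19, 4.47 and 3.86 CPM with IL-4. Rnase6, an antimicrobial ribonuclease of phagocytes, rose from 24.8 to 56.0 CPM on average (log2 1.17 ± 0.11, edgeR adjusted p = 5.1e-09), and Ang from 10.6 to 24.9 CPM. Rnh1, the cytosolic inhibitor of this ribonuclease family, rose by 0.59 ± 0.08. With IL-33, Ang2 had 4, 0 and 6 counts, which overlaps the 0 counts without cytokine. Rnase2b had 18, 11 and 4 counts with IL-33 against 0, 0 and 3 without (edgeR adjusted p = 0.0247). IL-33 raised Ang (0.53 ± 0.16) and lowered Rnase6 (-0.41 ± 0.11, adjusted p = 0.0056) and Rnh1 (-0.30 ± 0.08, 0.0068), so that these 2 went in opposite directions under the 2 cytokines. The direct difference, IL-33 minus IL-4, was -1.58 ± 0.11 for Rnase6 and -0.89 ± 0.08 for Rnh1 (edgeR adjusted p = 5.9e-11 and 8.9e-09).

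Of 7 relatives in the chitinase family, 2 passed, and Chid1 was called with IL-33 (0.45 ± 0.07) and IL-4 (0.36 ± 0.07) while Ctbs was not. The true chitinase genes Chia1 and Chit1 averaged at most 0.0105 CPM in any group. Of 3 resistin relatives, Retnlg passed and fell under IL-4 (log2 -2.79 ± 0.89, edgeR adjusted p = 0.0124), from an average of 0.311 to 0.0421 CPM. Retnlb, a resistin-like gene of the gut, was at 0 in every library.

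The 23 genes of the type 2 and IL-33 signalling list all passed the filter, Il13 and Il5 only through libraries given IL-33. Both had 0 counts in wild-type cells without cytokine, so these 2 had to differ, which bears on the number raised by IL-33. In wild-type cells IL-33 raised 13 and lowered 2 (median log2 change 0.43 against 0.00 over all tested genes), where 18.5% of all tested genes rose and 16.9% fell. IL-4 raised 8 and lowered 9 (median -0.03), where 25.1% rose and 22.5% fell. Il4ra stood at 289, 371 and 420 CPM with IL-33 against 78.3 to 81.7 without, and at 51.0 to 61.5 with IL-4. Il13ra1, a chain of the second receptor, went from 20.3 to 48.8 CPM with IL-33 and to 10.2 with IL-4. Both receptor genes rose with the cytokine that raised the members less and fell with the one that raised them more. Any part of these receptor transcripts in the members' responses was not tested.

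Il13, whose product uses these receptors, had 0 counts in the wild-type libraries without cytokine and with IL-4, and stood at 2.83, 2.78 and 3.07 CPM with IL-33. It stood at 2.13, 1.15 and 1.23 CPM in Gata3fl/fl labelled cells with IL-33 and at 0 in ST2-/- labelled cells with IL-33. Its level in the wild-type libraries did not follow the order of Retnla, and any part of Il13 in the members' rise was not tested. Socs1, a feedback inhibitor of this pathway, went from 1.41 to 9.99 CPM with IL-33 and to 59.6 with IL-4. Irf4 went from 16.8 to 26.0 and 121 CPM, and Klf4 from 47.2 to 116 and 201 CPM, in the same order. Pparg, a nuclear receptor of alternative activation, split the cytokines: it fell from 60.7 to 27.5 CPM with IL-33 (log2 -1.14 ± 0.09, edgeR adjusted p = 1.9e-09) and rose to 139 with IL-4 (1.19 ± 0.09, 2.1e-10). Stat6 fell slightly with both (-0.19 ± 0.05 and -0.22 ± 0.05).

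The genes most like each member were found by the root-mean-square difference of centred log2 CPM over the 21 libraries, among 10115 candidates. For Rnase4 they were Ang (0.154), Ap2m1 (0.194) and Casp6 (0.248), and Ang shares exon bases with it. Ap2m1, an adaptor subunit of clathrin-coated vesicles, averaged 294 CPM in unstimulated wild-type cells, 554 with IL-33 and 870 with IL-4. For Retnla and Rnase2a the same 3 genes came first: Cldn11, Msx3 and Tmem26. Cldn11, a tight junction protein, averaged 0.0167, 0.408 and 41.5 CPM, and its difference from Retnla was 1.54. For Ear2 the nearest was Slc7a2, a cationic amino acid transporter, at 2.69, 43.4 and 241 CPM (0.920). For Chil3 the nearest were Ablim1 (0.651) and Lipn (0.674), and for Chil4 Tmem26 (0.789) and Ocstamp (0.798). The libraries share 7 group means, of which 1 is far from the rest for most of these genes, so the likeness is mostly that of the IL-4 group.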

How the data were processed

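Counts per gene were deposited by the authors. Per the submitters' processing notes, HISAT2 2.0.5, HTSeq 0.6.1 and DESeq2 1.22.2 were used with GRCm38 (mm10); the annotation and the strand setting of the counting are not given in the sources used here. The members and lists were chosen with earlier results of these data known. All 9 members were named in every comparison; relatives and signalling genes were named from lists, and likeness was ranked among genes of average log2 CPM of at least 2.

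Counts were analysed as deposited with edgeR 4.0.16 in R 4.3.3 (TMM, filterByExpr with a count minimum of 10, quasi-likelihood fit over 21 libraries in 7 groups, 14 residual degrees of freedom). This left 14473 of 47069 genes, and p-values were adjusted by Benjamini-Hochberg within each of 11 comparisons. Folds against 0 counts used a floor of 3 counts per library, and intervals cover 95% of counting error only. Upper-quartile and size-factor scaling, no filter, a replicate block, fits of the compared groups only, limma-voom (limma 3.58.1), DESeq2 1.42.0, summed paralogs and each library left out were alternatives. GENCODE M21 held 46488 gene identifiers; 581 were not matched. The tests were tried on simulated data. Replicates differed by more than sampling noise.

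The labels state no pairing, and the replicate block was fitted over all 21 libraries. Replicate numbers were taken to pair libraries only where each of the 3 same-numbered pairs correlated over 0.1 in their deviations from group means. This held for IL-33 in ST2-/- labelled cells (0.183 to 0.386) and, without cytokine, for ST2-/- labelled (0.111 to 0.403) and Gata3fl/fl labelled cells (0.103 to 0.235) against wild type.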

Additional observations from a re-analysis of the deposited data

Results flagged for a closer look

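A difference between genotypes in the response to IL-33 was called, by an interaction test, in 4 cases. In ST2-/- labelled against wild-type cells the log2 difference in response was -1.09 for Chil3, -4.58 for Ear2 and -0.68 for Rnase4. There 12.1% of all tested genes were called lower. In Gata3fl/fl labelled against wild-type cells it was -2.03 for Ear2 (edgeR adjusted p = 0.0402), where 0.677% were called lower. That Ear2 call was lost by limma-voom and in most fits that left out a library. Sex cannot be told apart from that genotype.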

How the results depend on the processing

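Of 546 values from fits that each left out 1 library, 527 kept their call, as did 548 of 570 under the other alternatives. Direction was compared only where the main or the alternative fit called the value, so uncalled values may have changed sign. The number of members called ranged from 3 to 4 for IL-33 in Gata3fl/fl labelled cells, from 3 to 4 for the ST2-/- interaction, from 0 to 1 for the Gata3fl/fl interaction, from 0 to 1 for ST2-/- labelled against wild type without cytokine and from 4 to 5 for the same genotypes with IL-33, as single libraries were left out. The 1 member called for the Gata3fl/fl interaction became 2 without a low-count filter and 2 with the replicate block. It became 0 when the groups were fitted alone and by limma-voom. With paralog counts summed the number was also 2, but there 1 sum was counted for both Rnase2a and Ear2. The 3 called for the ST2-/- interaction became 5 without a filter. The 0 called for ST2-/- labelled cells with IL-33 became 1 without a filter, and the 0 for ST2-/- labelled against wild type without cytokine became 1 without a filter, with the replicate block, when these groups were fitted alone and by DESeq2. With the counts of 7 ribonuclease paralogs summed, the value of Rnase2a for the Gata3fl/fl interaction turned from 3.03 to -1.91 and that without cytokine from -3.22 to 1.84, by construction those of the sum, in which Ear2 has more counts than Rnase2a in these groups. The cause of the other changes was not tested.

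The replicate block added Rnase4 to the Gata3fl/fl interaction (-0.38, edgeR adjusted p = 0.0269) and, where the pairing rule was met, to ST2-/- labelled against wild type without cytokine. It changed no other call of a member. Over all pairs of same-numbered libraries the correlation ran from -0.191 to 0.403, and 18 of 21 libraries correlated best with their own number. Over all genes, the Gata3fl/fl interaction called 176 genes, 367 by DESeq2, 555 without a filter and 355 with the block. ST2-/- labelled against wild type without cytokine called 196, 415, 875 and 590 in that order, and IL-33 in ST2-/- labelled cells 0, and 70 without a filter. For IL-33 in Gata3fl/fl labelled cells upper-quartile normalization turned 2471 higher and 2364 lower into 2001 and 2985. Low counts limit what could be seen for Ear6 and Ear10, at most 5 and 6 in any library, and for Chil1, at 7 to 39 per group.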
